A study of Mus musculus with 2 samples.

Results

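The genes described here encode 9 precursors of the cornified envelope, *Sprr1a*, *Sprr1b*, *Sprr2d*, *Sprr2h*, *Sprr3*, *Lce3a*, *Crct1*, *Ivl* and *Cnfn*. They were chosen by name, with earlier results of these data known, from the 20198 genes counted in single cells of mouse cornea. The unwounded (UW) library pooled 8 corneas of 4 untreated male mice, and the wounded (W) library pooled 8 corneas of 4 mice taken 24 h after the central corneal epithelium had been scraped off, all aged 6 to 8 weeks. Neither the labels nor the methods name a strain, genotype or transgene for these mice, and the assignment of cells to animals that the methods describe was not used here, as the tables analysed give each cell only its library. Each condition is therefore 1 library, and no test, p-value or standard error is given. All intervals below are 95% intervals for counting error only. UW held 16450 cells (median 22014 UMIs per cell) and W held 12417 cells (median 20290), where a UMI (unique molecular identifier) marks 1 captured transcript, and 52 cell barcodes occurred in both libraries. Cells were taken by the clusters that the authors deposited, which carry numbers and no names. Counts were summed over the cells of a cluster and library and are given as CPM, counts per 1000000 UMIs of that sum, and a ratio is always CPM of W over CPM of UW.

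The cornified envelope is a protein shell laid down under the plasma membrane of stratified squamous epithelial cells as they differentiate, and transglutaminases cross-link its precursors into an insoluble layer. Involucrin (*Ivl*) is a scaffold on which others are assembled, small proline-rich proteins (the *Sprr* genes) act as cross-bridges between envelope proteins, and late cornified envelope proteins (the *Lce* genes) are added at the end. *Crct1* encodes a small cysteine-rich protein, and *Cnfn* encodes cornifelin, an envelope component. The corneal surface is a stratified epithelium that does not keratinize in health, and *Sprr* genes are known to respond to stress and injury in squamous epithelia.

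By GENCODE annotation of GRCm38, 8 of the 9 genes lie on chromosome 3 within 677 kb, in the epidermal differentiation complex. They run from *Sprr2d* (chr3:92339140-92340873, plus strand) and *Sprr2h* (chr3:92385685-92387324, plus) through *Sprr1b* (chr3:92436809-92438789, minus), *Sprr3* (chr3:92456502-92458720, minus), *Sprr1a* (chr3:92483952-92485895, minus), *Ivl* (chr3:92570902-92573735, minus) and *Lce3a* (chr3:92925287-92926230, minus) to *Crct1* (chr3:93014205-93015687, minus). *Cnfn* lies on chromosome 7 (chr7:25367620-25369724, minus). All 9 are annotated as protein-coding. Near-identical relatives can share reads, so each longest transcript was searched for 90-base windows that occur exactly in another gene. No such window was found for 8 of the 9 genes, and *Lce3a* shared 3.26% of its windows with *Lce3d*, *Lce3e* and *Lce3f*.

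The 250 bases before the RefSeq start (GRCm38.p6) are shown for 6 of the genes, namely 4 genes with most of their UMIs outside cluster 7 in W and, for comparison, 2 with most of their UMIs in it. Capitals mark the letters TGANTCA (N is any base), a loose form of TGA(C/G)TCA, the motif bound by AP-1 factors. As a pattern TGANTCA reads the same on both strands.
Sprr1a: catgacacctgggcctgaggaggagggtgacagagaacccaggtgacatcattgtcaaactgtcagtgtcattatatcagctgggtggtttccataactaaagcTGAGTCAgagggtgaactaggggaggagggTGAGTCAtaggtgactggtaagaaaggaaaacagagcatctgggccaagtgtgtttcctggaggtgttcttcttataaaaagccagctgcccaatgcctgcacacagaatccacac
Sprr1b: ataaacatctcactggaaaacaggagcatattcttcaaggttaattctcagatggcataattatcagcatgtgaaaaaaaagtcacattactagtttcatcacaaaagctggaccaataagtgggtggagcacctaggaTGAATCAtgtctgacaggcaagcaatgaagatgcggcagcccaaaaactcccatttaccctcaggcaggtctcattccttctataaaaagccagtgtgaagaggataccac
Sprr2h: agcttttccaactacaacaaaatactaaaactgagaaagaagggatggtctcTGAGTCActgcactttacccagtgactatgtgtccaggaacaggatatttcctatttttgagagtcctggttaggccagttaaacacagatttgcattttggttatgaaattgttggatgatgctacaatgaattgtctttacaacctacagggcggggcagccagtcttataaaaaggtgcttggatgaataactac
Ivl: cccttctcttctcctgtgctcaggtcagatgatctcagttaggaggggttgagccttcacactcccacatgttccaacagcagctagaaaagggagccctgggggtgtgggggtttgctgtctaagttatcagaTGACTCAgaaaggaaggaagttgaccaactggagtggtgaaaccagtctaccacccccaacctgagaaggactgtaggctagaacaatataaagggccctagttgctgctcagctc
Lce3a: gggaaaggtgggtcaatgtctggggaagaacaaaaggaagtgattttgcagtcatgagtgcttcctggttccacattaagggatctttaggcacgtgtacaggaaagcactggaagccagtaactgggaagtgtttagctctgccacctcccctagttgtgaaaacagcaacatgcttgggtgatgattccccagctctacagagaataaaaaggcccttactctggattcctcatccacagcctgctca
Cnfn: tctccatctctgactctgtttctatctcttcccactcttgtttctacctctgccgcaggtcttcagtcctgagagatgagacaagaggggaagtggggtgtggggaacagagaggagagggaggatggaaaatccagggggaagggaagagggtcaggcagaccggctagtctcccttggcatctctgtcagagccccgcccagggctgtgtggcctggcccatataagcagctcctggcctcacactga

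These windows lie at chr3:92485882-92486131 for *Sprr1a*, chr3:92438780-92439029 for *Sprr1b*, chr3:92385435-92385684 for *Sprr2h*, chr3:92573736-92573985 for *Ivl*, chr3:92926231-92926480 for *Lce3a* and chr7:25369725-25369974 for *Cnfn*. The letters TGANTCA occurred in 5 of the 8 genes with a promoter entry (*Sprr1a*, *Sprr1b*, *Sprr2d*, *Sprr2h* and *Ivl*) and in 6.75% of all 32851 promoter entries. *Sprr1a* held them at 2 places, beginning 146 and 116 bases before the start, which was the case for 0.338% of all entries. In *Ivl* and *Sprr1b* they began 116 and 111 bases before the start, and in *Sprr2d* and *Sprr2h* 193 and 198 bases before it. The match in *Sprr1b* was TGAATCA, which lies outside TGA(C/G)TCA. Of the other *Sprr* genes, 5 of 9 held the letters, and of the 18 *Lce* genes with an entry, *Lce3a* included, 0 did. The letters were not particular to genes higher in W, since *Scel*, which was lower in W, held them too, as did 12 of the 18 entries of the scaffold and other precursor genes described at the end. The letters TATAAA, searched on both strands, occurred in 6 of the 8 genes and in 12.4% of all entries. CACCC, the core letters of sites bound by Krüppel-like factors, occurred in 6 of the 8 genes on either strand, beside 52.0% of all entries. A match of letters is a description and does not show that a factor was bound.

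For the sums over the epithelium, clusters 1 to 9 and 11 were taken, which held 13501 UW and 8507 W cells. Their summed level of 7 general epithelial markers (*Krt12*, *Krt5*, *Krt14* and others) ran from 6656 to 60979 CPM, beside 2310 and 2170 CPM in stromal cluster 0 (led by *Kera*). Clusters were ordered from basal to superficial by the ratio of 6 superficial to 6 basal markers, which was 0.0551 in cluster 9 (led by *Wfdc18* and *Sox4*), 0.453 in cluster 3 (*Krt18*, *Ppbp*, *Dynap*), 1.71 in cluster 1 (*Pygl*, *Dapl1*), 1.89 in cluster 4 (*Cldn17*, *Dsg1a*), 7.94 in cluster 2 (*Ly6g6c*, *Spink5*), 38.7 in cluster 6 (*Krt78*, *Psca*) and 121 in cluster 7 (*Lce3a*, *Crct1*, *Krt23*). This ratio was taken over the counts of both libraries summed. In each library alone the order of the epithelial clusters was the same, except that cluster 3 came before cluster 5. Clusters 8 (*Top2a*) and 11 (*Mcm3*) were led by genes of the cell cycle, and cluster 5 by *Serpinb3a* and *Krt4*. These markers themselves moved between the libraries. The basal list went from 748 to 18212 CPM in cluster 1, from 3125 to 17108 CPM in cluster 3 and from 152 to 930 CPM in stromal cluster 0. The superficial list was lower in W, from 59541 to 30308 CPM in cluster 7 and from 1103 to 299 CPM in cluster 0. Their part in the results was not tested. Cluster 7 is defined by 2 of the genes described here, so its high level of *Lce3a* and *Crct1* is a description of that cluster.

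**Figure D1:**
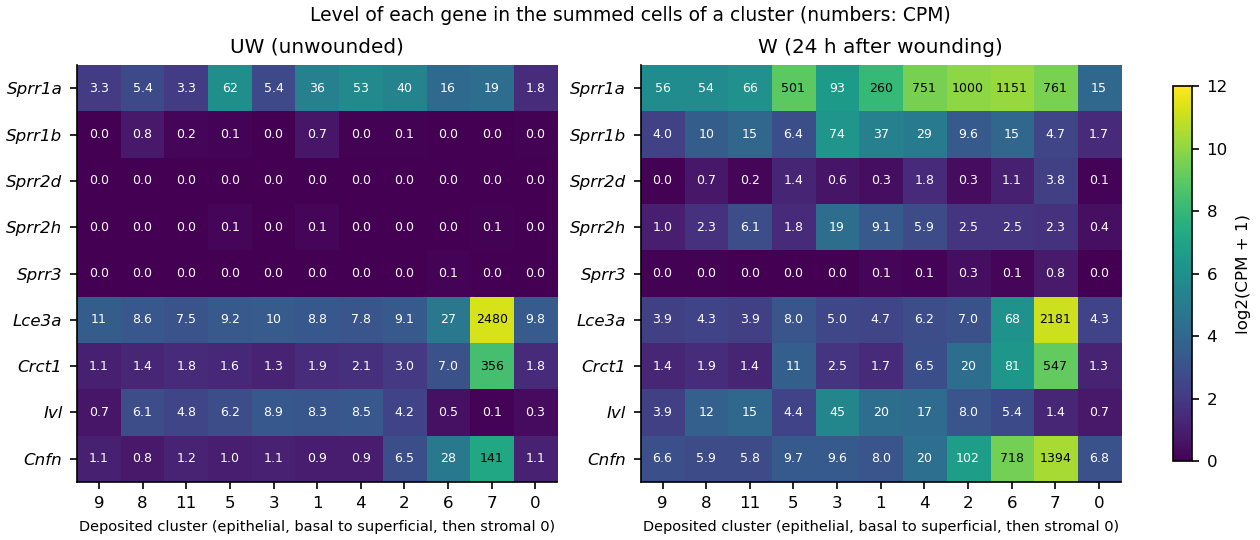
CPM of each precursor (rows) in the summed cells of each deposited cluster (columns) in UW (left) and W (right), with colour as log2(CPM + 1). Columns run from the lowest to the highest ratio of superficial to basal markers over both libraries summed, with stromal cluster 0 last. *Lce3a*, *Crct1* and *Cnfn* are highest in cluster 7 in both libraries, while *Sprr1b*, *Sprr2h* and *Ivl* are highest in cluster 3 in W.

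Over the epithelial clusters summed, 7 of the 9 precursors were at least 2-fold higher in W (*Sprr1a*, *Sprr1b*, *Sprr2d*, *Sprr2h*, *Sprr3*, *Ivl* and *Cnfn*), beside 21.8% of the 16439 genes with at least 20 UMIs. *Lce3a* was at least 2-fold lower, beside 8.77% of all genes, and *Crct1* was within 2-fold. Because the precursors were chosen with earlier results known, the shares over all genes are given as description only. The median log2 ratio was 2.66 over the 9 precursors and 0.22 over all genes, and scaling by TMM factors lowered every epithelial log2 ratio by 0.21. In single clusters, 84 pairs of a gene and a cluster had at least 20 UMIs, of which 62 were at least 2-fold higher in W, beside 12.7% of all 150063 pairs of genes and clusters. Of the 84, 4 were at least 2-fold lower, all of *Lce3a*, beside 9.8% of all pairs. Of the 62 higher pairs, 6 lay in stromal clusters 0 and 10, and 49 stood at least 2-fold over stromal cluster 0 of W. Stromal cells should lack these genes, so the level in cluster 0 was taken as a background level, whatever the source of its counts, which was not tested. Single cells of cluster 0 in W held up to 15 UMIs of *Sprr1a*, 13 of *Sprr1b* and 11 of *Lce3a*. The background level itself differed between libraries, since in cluster 0 *Sprr1a* went from 1.83 to 15.4 CPM and *Lce3a* from 9.81 to 4.31 CPM.

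*Lce3a*, a late envelope gene, was the most abundant of the 9 in UW, at 281 CPM over the epithelium, and was at 118 CPM in W (a log2 ratio of -1.25, interval -1.27 to -1.23). Cluster 7 held 96.0% of its UMIs in UW and 91.5% in W. Inside that cluster the level changed little, from 2480 to 2181 CPM, a log2 ratio of -0.19. Cluster 7 made up 11.2% of epithelial cells in UW (interval 10.7 to 11.7) and 6.21% in W (5.7 to 6.74). With the clusters of W weighted by the cell shares of UW, the epithelial log2 ratio of *Lce3a* was -0.32, and without cluster 7 or cluster 8 it was -0.28 or -0.99, so in these 3 settings it was no longer 2-fold lower. In such sums, fewer cells of a type and less RNA per cell cannot be told apart.

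In cluster 6, next to cluster 7 in the marker order, *Lce3a* went the other way, from 27.4 to 68.3 CPM (log2 ratio 1.32, interval 1.20 to 1.44). That difference lay in few cells, since 11 of 652 W cells had 20 or more UMIs, beside 7 of 1533 UW cells, and the 66 W cells with the most UMIs held 91.8% of them. The share of cluster 6 cells with a UMI was 31.2% in UW and 22.9% in W, beside 11% and 7.16% in cluster 0. Once each cell had been thinned to 5000 UMIs it was 10.3% (interval 8.78 to 11.9) and 8.64% (6.56 to 11.1), beside 5.18% and 2.22%, so no order of the shares is read. In the other epithelial clusters *Lce3a* lay between 0.761 and 1.10 times its cluster 0 level in UW and between 0.896 and 1.85 times in W, within 2-fold of the level in cluster 0. The 4 pairs at least 2-fold lower were clusters 0, 3, 9 and 10, all at that level.

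Cells of cluster 7 were far from alike in *Lce3a*. In UW, 578 of 1511 cells (38.3%) had no UMI, the median was 1 UMI and the maximum 1588. In W, 203 of 528 cells (38.4%) had none, the median was 2 and the maximum 1019. The 152 UW cells with the most UMIs held 72.7% of them and the 53 such W cells held 72.9%, and cells with 20 or more UMIs made up 30.8% and 29.0%. The distribution of *Lce3a* over cluster 7 was therefore nearly the same in both libraries, unlike that of the other genes plotted beside it. *Lce3a* is a leading gene of this cluster, and the part of the clustering in this likeness was not tested.

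**Figure D2:**
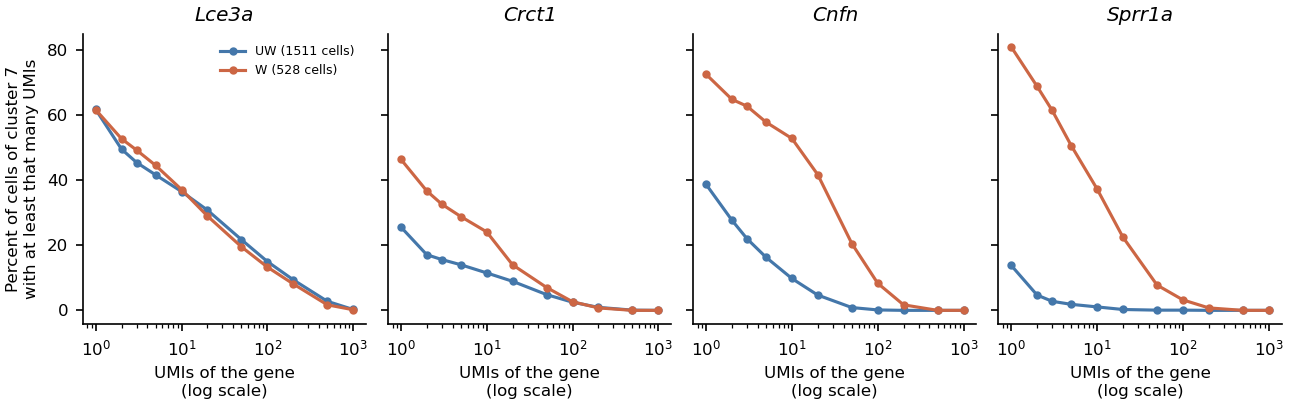
Percent of the cells of cluster 7 (y axis) with at least the number of UMIs on the x axis (log scale) for 4 genes, in UW (1511 cells) and W (528 cells). The curves of *Lce3a* lie close together, those of *Cnfn* and *Sprr1a* are higher in W, and that of *Crct1* is higher in W up to 100 UMIs and lower at 200 (0.758% against 0.927%). For *Crct1*, *Cnfn* and *Sprr1a*, 46.4%, 72.5% and 80.9% of W cells held at least 1 UMI against 25.6%, 38.7% and 13.8% of UW cells.

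*Crct1*, which followed *Lce3a* most closely among the precursors (Pearson r of 0.896 over 28 sums of a cluster and library), stood at 41.2 CPM in UW and 37.6 CPM in W over the epithelium (log2 ratio -0.13). It was at least 2-fold higher in W in 4 of 12 clusters (2, 4, 5 and 6). In cluster 7 it went from 356 to 547 CPM (1.54-fold), in cluster 6 from 6.98 to 80.9 CPM (11.6-fold), in cluster 2 from 3.03 to 19.5 CPM (6.44-fold) and in cluster 5 from 1.60 to 11.4 CPM (7.12-fold). The 66 of 652 W cells of cluster 6 with the most UMIs held 82.5% of them, and the 89 of 888 in cluster 2 held 81.2%. In cluster 5 of W 1090 of 1201 cells had no UMI, and the maximum was 95 of the 411 UMIs. The other clusters lay between 0.736-fold (cluster 0) and 1.92-fold (cluster 3), with counting intervals that spanned 1 in clusters 0, 1, 8, 9, 10 and 11. The epithelial log2 ratio was 0.70 at the cell shares of UW. With the 1% of cells with the most *Crct1* UMIs left out of each cluster and library it was 0.07. Its sign thus turned with more than 1 of the settings. After thinning to 5000 UMIs, 17.1% of cluster 7 cells in UW (interval 15.2 to 19.1) and 33.7% in W (29.6 to 38) had a *Crct1* UMI, beside 0.992% and 0.761% of cluster 0 cells. Over cluster 0 the level in cluster 7 was 202-fold in UW and 422-fold in W.

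*Cnfn* was higher in W in the superficial clusters, beyond the change of *Lce3a* there. Its CPM went from 141 to 1394 in cluster 7 (log2 ratio 3.31, interval 3.26 to 3.35), from 28.0 to 718 in cluster 6 (4.68, interval 4.60 to 4.77) and from 6.49 to 102 in cluster 2 (3.97, interval 3.81 to 4.13). In cluster 4 it went from 0.903 CPM, below the cluster 0 level, to 20 CPM, which was 2.96 times cluster 0 of W. Cluster 7 held 73.5% of *Cnfn* UMIs in UW and 52.4% in W, and cluster 6 held 17.5% and 33.6%. The difference was spread over many cells. In cluster 6 the median cell had 0 UMIs in UW and 6 in W, and 179 of 652 W cells had 20 or more against 4 of 1533 UW cells. In clusters 1, 3, 5, 8, 9 and 11 of W *Cnfn* lay between 0.863 and 1.44 times its level in cluster 0, so the 2-fold differences counted there are at about the level of cluster 0.

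**Figure D3:**
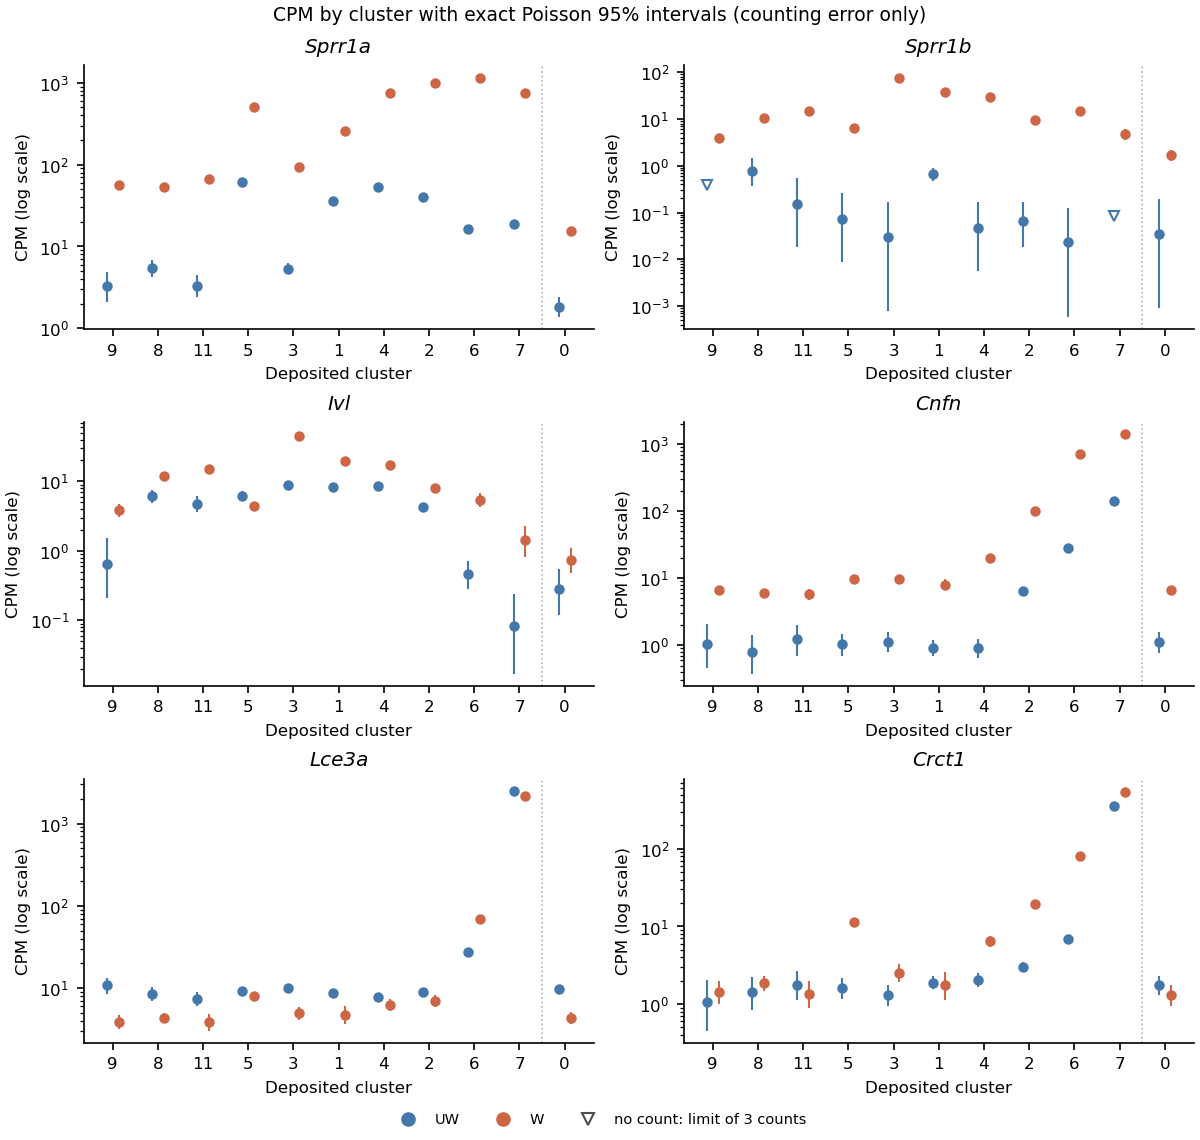
CPM of 6 precursors (log scale) in each deposited cluster in UW (blue) and W (orange), with exact Poisson 95% intervals. Open triangles mark the level that a count of 0 allows (3 counts), and stromal cluster 0 stands right of the dotted line. *Cnfn* and *Crct1* climb towards cluster 7 in both libraries, *Ivl* is lowest in cluster 7 among the epithelial clusters of both libraries, and *Sprr1a* is higher in W in every cluster shown.

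*Ivl*, the scaffold precursor, had its lowest epithelial level where *Lce3a* was highest. In UW it stood between 4.25 and 8.88 CPM in clusters 1, 2, 3, 4, 5, 8 and 11, and at 0.657 CPM (5 UMIs) in cluster 9, the most basal in the marker order, 0.459 CPM in cluster 6 and 0.0827 CPM (3 UMIs) in cluster 7. In W it was highest in cluster 3, where it went from 8.88 to 45.1 CPM (log2 ratio 2.35, interval 2.16 to 2.54), followed by cluster 1 with 8.35 and 19.5 CPM and cluster 4 with 8.50 and 17.4 CPM. The ratios were larger in the 3 clusters low in UW, where W had 5.44 CPM in cluster 6 (log2 ratio 3.57, interval 2.85 to 4.35), 1.42 CPM in cluster 7 (4.11, 2.32 to 6.52, 17 UMIs) and 3.86 CPM in cluster 9 (2.55, 1.28 to 4.21). Cells of cluster 3 with an *Ivl* UMI after thinning made up 3.63% in UW and 19.2% in W, beside 0.129% and 0.293% in cluster 0. The difference was not general, since in cluster 5 *Ivl* was at 6.24 CPM in UW and 4.4 CPM in W (log2 ratio -0.50, interval -0.83 to -0.18). The ratio in clusters 5 and 3 thus differed in sign, with 1 library of each condition and no test.

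*Sprr1a*, a cross-bridging precursor, was the most abundant of the 9 in W, at 399 CPM over the epithelium against 30.4 CPM in UW (log2 ratio 3.72, interval 3.69 to 3.74). It was higher in W in all 12 clusters compared. The largest levels in W were 1151 CPM in cluster 6, 1000 CPM in cluster 2, 761 CPM in cluster 7 and 751 CPM in cluster 4, where UW had 16.2, 40.3, 18.8 and 52.9 CPM. The order of clusters differed between the libraries. In UW cluster 5 was highest, at 61.6 CPM, and cluster 6 held 6.92% of all *Sprr1a* UMIs, while in W cluster 6 was highest and held 17.7%. The change reached most cells of these clusters, and in cluster 6 the median went from 0 to 15 UMIs, with 77.9% of UW cells and 6.13% of W cells at 0. After thinning, 6.53% of cluster 6 cells in UW and 86.7% in W had a *Sprr1a* UMI, beside 0.820% and 7.32% of cluster 0 cells. In cluster 10, a second stromal cluster, the W level of 14.9 CPM was 0.967 times that of cluster 0, so the 7.74-fold difference there is at the level of cluster 0.

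*Sprr1b* and *Sprr2h* were almost absent in UW, with 59 and 13 UMIs over 13501 epithelial cells, and had 4511 and 1146 UMIs over 8507 cells in W. Their CPM went from 0.177 to 18.9 (log2 ratio 6.73, interval 6.36 to 7.13) and from 0.039 to 4.79 (6.94, interval 6.16 to 7.85). In W both were highest in cluster 3, and not in the superficial clusters, whereas in UW most *Sprr1b* UMIs lay in clusters 1 (37 UMIs in 14 cells, 0.464 to 0.908 CPM) and 8 (10 UMIs in 3 cells, 0.375 to 1.44 CPM). *Sprr1b* had 1 UMI in cluster 3 of UW and 1682 in W, which is 0.0305 and 74.5 CPM (a log2 ratio of 11.25, interval 8.77 to 16.56). *Sprr2h* had 0 UMIs in cluster 3 of UW and 434 in W (19.2 CPM), at least 210-fold higher against the 3 counts that a sum of 0 allows (170-fold at the lower limit of the counting interval). Cluster 1 was next for both, at 37.0 CPM of *Sprr1b* and 9.11 CPM of *Sprr2h* in W. The W levels in cluster 3 were 44.0 and 48.0 times those in cluster 0, and 74.5 CPM of *Sprr1b* in cluster 3 compares with 4.69 CPM in cluster 7.

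The 2 genes were also the most alike of all pairs of precursors over the 28 sums (Pearson r of 0.930), whereas *Sprr1b* and *Lce3a* had an r of -0.179. These sums share 2 libraries, and the values are given as descriptions. In cluster 3 of W *Sprr1b* came from a minority of cells, as 647 of 885 had no UMI, 26 had 20 or more, the maximum was 88, and the 89 cells with the most held 86.3% of its UMIs. The cells of cluster 3 in W with at least 2 *Sprr1b* UMIs (149 cells, median 23682 UMIs) were set against those with none (647 cells, median 23906 UMIs), a comparison chosen after the data had been seen and with no test. *Sprr1a* stood at 251 and 49.8 CPM in these cells, *Sprr2h* at 35.3 and 14.2 CPM and *Ivl* at 71.4 and 38.1 CPM. *Cnfn* stood at 14 and 8.34 CPM (61 and 133 UMIs). After thinning, 0.813% of cells with a *Sprr1b* UMI (interval 0.0206 to 4.45) and 4.58% of those without (3.19 to 6.34) had a *Cnfn* UMI. *Lce3a* stood at 7.11 and 4.2 CPM (31 and 67 UMIs) and *Crct1* at 2.06 and 2.76 CPM (9 and 44 UMIs). Cluster 0 of W stood at 6.75 CPM for *Cnfn*, 4.31 CPM for *Lce3a* and 1.29 CPM for *Crct1*. *Sprr3* had no UMI in either group of cells. The same split gave *Sprr1a* higher in cells with *Sprr1b* in clusters 1, 4 and 11 of W too (621 and 176 CPM in cluster 1). *Ivl* was higher in clusters 1 and 4 and stood at 13.4 and 14.8 CPM in cluster 11. *Cnfn* stood at 5.63 and 7.42 CPM in cluster 1, 26.6 and 16.9 CPM in cluster 4 and 7.91 and 6.35 CPM in cluster 11. *Lce3a* had 11, 7 and 9 UMIs in the cells with *Sprr1b* of clusters 1, 4 and 11, so no direction is read for it. In cluster 3 the genes with the largest ratios were *Ppbp* (890 and 152 CPM), which encodes a chemokine, *Igfbp3* (206 and 33.8 CPM), a binding protein of insulin-like growth factors, *Sprr1a* and *Dynap* (501 and 114 CPM). *Krt18*, a keratin of simple epithelia, was at 684 and 194 CPM, and *Fosl1*, which encodes an AP-1 subunit, at 139 and 72.2 CPM. In clusters 1 and 4 *Fosl1* was not higher in these cells, at 39.4 and 45.1 CPM and at 69.7 and 70 CPM, while in cluster 11 it stood at 69.9 and 44.2 CPM. In cluster 3 *Itgb4*, the basal integrin, was at 356 and 346 CPM and *Krt14* at 14960 and 13429 CPM, while *Lamb3*, another basal gene, was at 303 and 175 CPM and *Krt16* at 4322 and 2517 CPM.

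*Sprr2d* had 0 UMIs over the UW epithelium, for which 3 counts are 0.00901 CPM, and 213 UMIs in W (0.891 CPM), at least 98.9-fold higher against those 3 counts (79.7-fold at the lower limit of the counting interval). Few cells carried it, as 78 of 8507 epithelial W cells had a UMI and single cells held up to 22. With the 1% of cells with the most UMIs of a gene left out of each cluster and library the lower bound of its log2 ratio was 2.80, and with cells thinned to 5000 UMIs it was 4.24, against 6.63 with all cells and UMIs. Its W level was highest in cluster 7 (3.77 CPM), then in cluster 4 (1.77 CPM) and cluster 5 (1.35 CPM), so within the Sprr2 family it did not follow *Sprr2h*. *Sprr3* was the rarest precursor, with 6 UMIs in UW and 27 in W over the epithelium (log2 ratio 2.65, interval 1.34 to 4.21). Of the 27 W UMIs, 10 lay in cluster 7 and 8 in cluster 2, no cluster reached 20 UMIs over both libraries, and with those 1% of cells left out, which removed all its UW UMIs, the lower bound of its log2 ratio was 0.90.

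**Figure D4:**
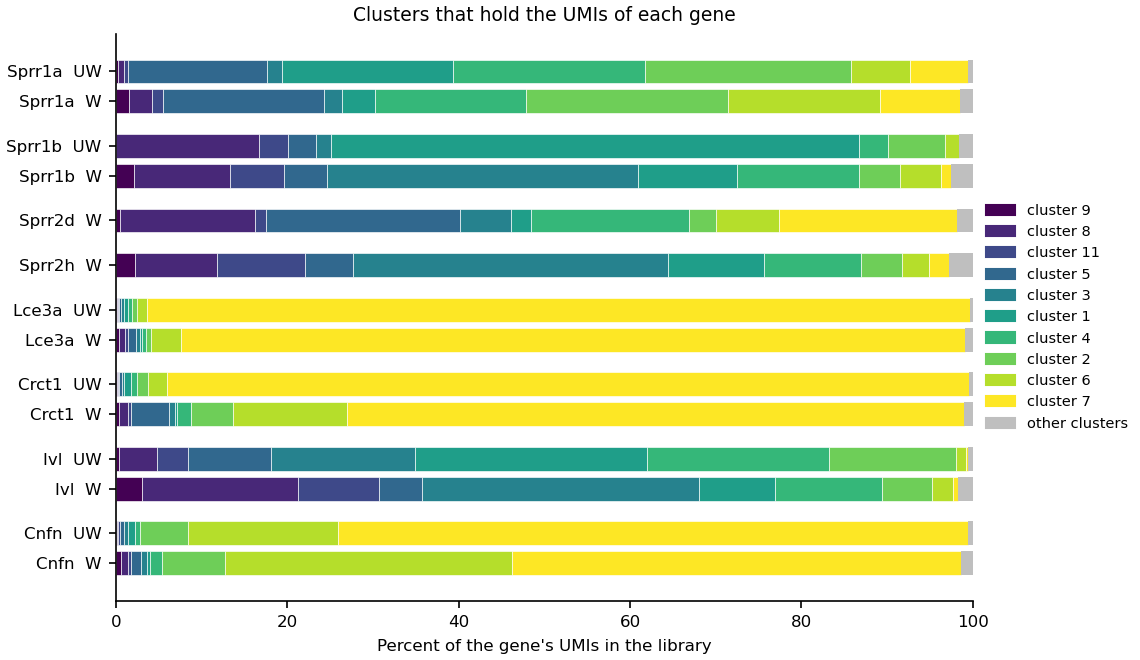
Share of each gene's UMIs (x axis, percent) that lay in each deposited cluster, 1 bar per gene and library, with clusters coloured from basal (dark) to superficial (bright) and all other clusters in grey. *Sprr3*, with 6 UMIs in UW and 27 in W over the epithelium, is not drawn, and the UW bars of *Sprr2d* and *Sprr2h* are left out for having fewer than 20 UMIs. Yellow, cluster 7, takes 96.0% of *Lce3a* in UW, while cluster 3 takes 36.3% of *Sprr1b*, 36.8% of *Sprr2h* and 32.3% of *Ivl* in W.

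Clusters 7 and 3 both held precursors at a higher level in W. In cluster 7, 6 of the 8 precursors with at least 20 UMIs were at least 2-fold higher in W, beside 23.2% of all genes tested there. In cluster 3 it was 5 of 7, beside 15.1% of all genes. The 6 include *Ivl*, at 1.92 times its level in cluster 0 of W (17 UMIs, interval 0.97 to 3.73). The 5 include *Cnfn*, at 1.42 times its level in cluster 0 of W (interval 1.18 to 1.73). After thinning to 5000 UMIs, the share of cells with at least 2 of the 9 precursors went from 3.33% to 65.0% in cluster 6 and from 26.0% to 67.4% in cluster 7, and from 0.703% to 16.1% in cluster 3, beside 0.259% and 0.761% in cluster 0. The genes highest in cluster 7 occurred in the same cells. In cluster 7 of W, 85.9% of the thinned cells with an *Lce3a* UMI (interval 81.1 to 89.9) and 38.8% of those without (32.7 to 45.1) had a *Cnfn* UMI, and in UW the shares were 35.1% and 10.4%. For *Crct1* the shares were 51.0% and 15.6% in W and 32.3% and 4.10% in UW.

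Other genes of the envelope were counted in lists, which were also chosen with earlier results of these data known. The *Sprr* genes beyond the 9 were all at least 2-fold higher in W where they had at least 20 UMIs, 6 of 6, beside 21.8% of all genes, and 0 were lower. Their median log2 ratio was 4.38 (genes at 0 in UW taken at their lower bound) beside 0.22 over all genes. *Sprr2f*, the most abundant, went from 0.955 to 28.4 CPM (29.7-fold) and reached 80.0 CPM in cluster 5 and 79.4 CPM in cluster 7 of W. *Sprr2a3* went from 5 to 2383 UMIs (9.97 CPM in W), and its highest cluster was 9, the most basal in the marker order, at 39.2 CPM. *Sprr2a3* shares 40.6% of its 90-base windows, and 65.0% of its last 300 windows, with its near copies *Sprr2a1* and *Sprr2a2*. These copies share 93.2% and 93.5% of their windows with other genes, so how counts are split among these 3 is uncertain. *Sprr2e* and *Sprr2i* had 0 UMIs in UW, and 58 and 35 in W.

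The other late envelope genes went the opposite way. Of the 6 with at least 20 UMIs, 5 were at least 2-fold lower in W and 0 higher, beside 8.77% and 21.8% of all genes, with a median log2 ratio of -2.37. *Lce3f* went from 14 to 1.31 CPM, *Lce3b* from 10.6 to 1.89 CPM and *Kprp*, which encodes a keratinocyte proline-rich protein, from 3.2 to 0.711 CPM, while *Lce3c* stood at 5.32 and 7.13 CPM. *Lce3e* and *Lce6a*, named after their values were seen, had log2 ratios of -2.45 and -2.28. Unlike *Lce3a*, these genes were also lower inside cluster 7, where 5 of 6 were at least 2-fold lower, beside 6.48% of all genes tested there, with *Lce3f* at 123 CPM in UW and 23.9 CPM in W and *Lce3b* at 94.5 and 34.8 CPM. *Lce3c* and *Lce3f* share 25.7% and 44.1% of their windows with other *Lce* genes, which makes their split uncertain.

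Of the scaffold and other precursor genes, 7 of 14 were at least 2-fold higher and 4 lower, beside 21.8% and 8.77% of all genes (median 0.97 beside 0.22). *Anxa1*, which encodes the membrane-binding annexin A1, went from 931 to 1991 CPM. The plakin genes *Ppl* and *Evpl*, whose products start envelope assembly at the membrane, stood at 1175 and 601 CPM in UW and at 524 and 334 CPM in W, and *Pof1b* went from 204 to 82.2 CPM. *Krtdap*, *Dmkn* and *Sbsn*, keratinocyte secreted-protein genes named after their values were seen, had the largest ratios of this list, with log2 ratios of 4.77, 3.17 and 2.63. *Scel* and *Cst6*, the other 2 lower genes besides *Ppl* and *Pof1b*, had -2.14 and -1.03.

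For the enzymes and regulators the counts were near or below the shares over all genes, 21.8% higher and 8.77% lower. Among the cross-linking and lipid enzymes, 2 of 10 were at least 2-fold higher and 1 lower (median 0.08). *Tgm1*, the membrane-bound transglutaminase of keratinocytes, stood at 37.8 CPM in UW and 59.5 CPM in W, *Tgm2* at 108 and 71.5 CPM, *Cers3*, a ceramide synthase, at 34.3 and 22.8 CPM and *Tgm5* at 20.7 and 17.6 CPM. The 3 past 2-fold, named after their values were seen, were *Elovl4* (1.87), *Abca12* (1.07) and *Casp14* (-1.50) by log2 ratio. Of 19 regulators, 2 were at least 2-fold higher, *Maf* (2.37) and *Cebpa* (1.57), and 2 of 19 lower, *Hopx* (-1.37) and *Grhl1* (-1.07), with a median of 0.13. Among the most abundant, *Jun* stood at 2587 and 3023 CPM, *Junb* at 2417 and 1345 CPM and *Elf3* at 1168 and 952 CPM in UW and W, and *Hopx* at 1722 and 667 CPM. *Jun* and *Junb* encode subunits of AP-1, and *Fosl1*, another subunit, stood at 33.9 and 52.1 CPM.

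**Figure D5:**
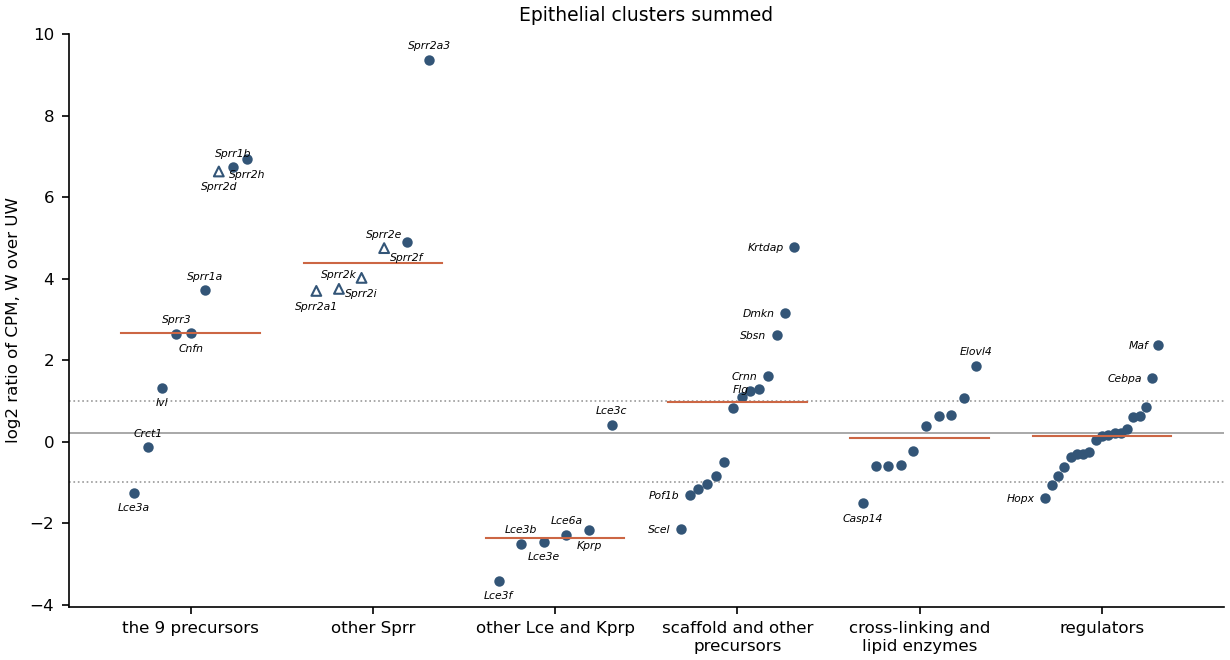
log2 ratio of CPM (W over UW, y axis) of each gene with at least 20 UMIs in the epithelial clusters summed, by list (x axis). Open triangles are lower bounds for genes with no UMI in UW, orange lines are list medians, dotted lines mark 2-fold, the grey line is the median of all genes (0.22), and in the last 3 lists only the outer genes are labelled. The other *Sprr* genes lie above and 5 of the 6 other late envelope genes lie below the dotted lines.

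The genes most like each precursor over the 28 sums, among 11683 genes with at least 1000 UMIs, are named for each. For *Lce3a* they were *1700019C18Rik*, *Asb11* and *Gm20268* (r of 0.970, 0.960 and 0.958), for *Crct1* *Clca3b*, *Gm5475* and *Gm20268* (0.932, 0.918 and 0.915), and for *Cnfn* *Il1f6*, *Gm20234* and *Herc6* (0.925, 0.924 and 0.922). For *Sprr1b* they were *Dynap*, *Fcmr* and *Akr1b8* (0.965, 0.946 and 0.935), for *Sprr2h* *Sprr1b*, *Csn3* and *Dynap* (0.930, 0.907 and 0.906), and for *Ivl* *Uchl3*, *Epgn* and *Clca2* (0.903, 0.900 and 0.899). *Sprr1a* was most like *BC117090*, *Nfkbiz* and *S100a3* (0.946, 0.915 and 0.906). *Sprr2d* was most like *Sprr2f*, *Sbsn* and *BC037156* (0.857, 0.788 and 0.757), and *Sprr3*, on 33 UMIs in all, was most like *Lypd8*, *Defb14* and *Klk10* (0.790, 0.786 and 0.729). The sums share 2 libraries, so these values describe likeness of pattern and carry no test.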

How the data were processed

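Corneal cells of 1 UW and 1 W library were read as UMI counts per gene and cell, which the authors deposited without normalization, with a table of each cell's library and cluster. The authors had aligned reads with Cell Ranger 3.1.0 to the mm10 reference (the labels list mm9), kept cells by gene number and mitochondrial share, removed doublets and clustered integrated data in Seurat. The paper and the labels name different versions of the droplet kit. The files hold fewer cells than the study states, and all lie within its filters. Doublets were not called again here, and 469 cells that an earlier caller had marked were left out as an alternative. Columns of 0 samples outside the series were found. The 9 genes and the lists were chosen with earlier results of these data known.

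Counts were summed per cluster and library (NumPy 2.4.6, SciPy 1.17.1, pandas 2.3.3, Python 3.11.15). Depth is the UMI total of each sum. CPM has exact Poisson 95% intervals, shares have Clopper-Pearson intervals, and ratios have exact conditional binomial intervals. These cover counting error only. A sum of 0 stands at 3 counts, per sum. Ratios were counted at 20 or more UMIs over both libraries, in clusters with at least 50 cells in each. Because each condition is 1 library, no test was run. The ratio code was tested on simulated data. For comparisons of shares, cells were thinned to 5000 UMIs without replacement, leaving out shallower cells. All 9 genes were named, with the 4 genes of each list that had the highest CPM and the 3 genes most like each precursor. Likeness used log2(CPM + 1). Leading genes of clusters and of *Sprr1b* cells were ranked by log2(CPM + 5) against the rest. Positions came from GENCODE M21 and promoters from a RefSeq table, which held 8 of the 9 genes. Alternatives used TMM factors of edgeR 4.0.16, size factors of DESeq2 1.42.0 (R 4.3.3), other cell filters, weights, thresholds and sets of clusters.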

Additional observations from a re-analysis of the deposited data

Results flagged for a closer look

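*Lce3a* went in opposite directions in different clusters. Its log2 ratio of W over UW was 1.32 in cluster 6 and -1.47 in cluster 9, and the difference between the clusters was not tested, since each condition is 1 library. In cluster 9 the level was 1.10 times that of stromal cluster 0 in UW and 0.903 times in W.

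The clusters that W held almost alone (13 to 17) enter no comparison of W with UW above, and counts of 7 precursors were found in them. Summed over these clusters of W, the levels were 70.2 CPM for *Sprr1a*, 14.6 CPM for *Cnfn*, 6.63 CPM for *Lce3a*, 5.0 CPM for *Sprr1b*, 3.16 CPM for *Crct1*, 2.96 CPM for *Ivl* and 1.53 CPM for *Sprr2h*. Clusters 13 to 16 were led by genes of immune cells, and cluster 17 (29 cells) held stromal markers at 36808 CPM beside 3726 CPM of neutrophil markers. Stromal cluster 0 of W stood at 15.4 CPM for *Sprr1a* and 6.75 CPM for *Cnfn*. In cluster 14 (led by *Cd74*) *Sprr1a* reached 129 CPM, with a median of 0 and a maximum of 43 UMIs, and 36 of 354 cells held 90.1% of its UMIs. The 7 epithelial markers stood at 13087 CPM in cluster 14 of W and 10503 CPM in cluster 13, beside 2170 CPM in cluster 0, and their part in these counts was not tested.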

How the results depend on the processing

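No paired analysis was possible because each condition is 1 library. The counts of genes and pairs were recomputed under 22 alternatives, and 61 of 66 stayed within 1.5 times the value given. The count of precursors at least 2-fold lower over the epithelium, 1 (*Lce3a*), was 0 with W weighted by the cell shares of UW, 0 without cluster 7 and 0 without cluster 8. The count of pairs at least 2-fold lower, 4, was 8 with the top 1% of cells of each cluster left out and 7 at 1.5-fold. The count of precursors at least 2-fold higher, 7, was 5 with the top 1% of cells left out, 6 with cells thinned to 5000 UMIs and 8 without cluster 7, and that of higher pairs, 62, ran from 45 with thinning to 70 with no minimum of UMIs. With the level of cluster 0 subtracted, 60 pairs of the 11 other clusters were higher and 3 lower. Of 180 recomputed log2 ratios of single precursors, 0 changed sign among those at least 2-fold apart. Over these settings *Sprr1a* lay between 3.42 and 4.11, *Cnfn* between 2.23 and 3.46, *Ivl* between 1.02 and 1.60, *Sprr1b* between 6.08 and 10.48, *Sprr2h* between 6.25 and 8.30, *Sprr2d* between 2.80 and 6.83, *Sprr3* between 0.90 and 3.43, *Lce3a* between -1.46 and -0.28 and *Crct1*, within 2-fold, between -0.42 and 1.97. All values of *Sprr2d*, and those of *Sprr1b* (10.48), *Sprr2h* (8.30) and *Sprr3* (0.90) with the top 1% of cells left out, are lower bounds, since UW then had 0 UMIs. Scaling moved the log2 ratios of cluster 7 by -0.26 and those of cluster 0 by 0.15 (TMM). Differences between mice were not analysed here, and with 1 library per condition those between preparations cannot be told apart from the condition.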
